A study of Mus musculus with 6 samples.

Results

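Squamous and epithelial identity in mouse tumours was followed through 10 genes of 37991 listed per library. They are the lineage transcription factors Trp63, Sox2, Sox9, Grhl1, Grhl2 and Ovol1, the splicing factors Esrp1 and Esrp2, the membrane protease gene St14 and the trafficking GTPase gene Rab25. They were listed by name as regulators and effectors of epithelial identity, and all 10 had an identifier in the count files. The study sequenced total RNA of mouse cutaneous squamous cell carcinoma (cSCC) tumours, a keratinocyte cancer, in 6 libraries. The null group held 3 libraries from tumours with a knockout of Kindlin-1, and the wild-type group held 3 libraries from tumours that express it. Fermt1 codes for Kindlin-1, a cytoplasmic protein that binds integrin tails and helps to activate them. The sources used here do not give host strain, age, the number of cell clones or the site of the tumours. The labels give null libraries 2 and 3 the same mouse number and wild-type libraries 1 and 2 another, so n = 3 counts libraries that may come from 2 animals in each group, and p-values reflect the spread of these libraries alone, which may be partly technical. The deposited file of null library 3 carries a mouse number in its name that differs from that in its title.

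p63, the product of Trp63, is the transcription factor on which stratified epithelia such as epidermis depend. SOX2 and SOX9 are related DNA-binding factors of progenitor cells, SOX9 in the hair follicle and both in many squamous carcinomas. The grainyhead-like factors GRHL1 and GRHL2 and the zinc finger factor OVOL1 maintain the epithelial state, in part by activating junction genes or by repressing genes of epithelial-mesenchymal transition. ESRP1 and ESRP2 set the epithelial pattern of exon choice in transcripts such as those of Fgfr2 and Cd44. Matriptase, the product of St14, is a protease of the epithelial surface, and RAB25 is a small GTPase of the RAB11 family that recycles membrane proteins in epithelial cells.

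The counted reads in genes numbered 1138318, 31487255 and 5226493 in null libraries 1 to 3, and 1283566, 161711 and 15529242 in wild-type libraries 1 to 3. Levels are given as CPM, the read count scaled to library size, after TMM scaling, an adjustment for library composition. A floor of 3 reads stood at 2.76, 0.0951 and 0.590 CPM in null libraries 1 to 3, and at 2.34, 18.4 and 0.187 CPM in wild-type libraries 1 to 3, so wild-type library 2 could not resolve most of these genes. Fermt1 had 0, 2 and 2 reads in the null libraries and 16, 2 and 1040 reads in the wild-type libraries (edgeR log2 fold change -8.18, SE 0.89, adjusted p = 0.000297), in the direction the labels give.

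The 10 genes differed widely in read count. Sox2, Trp63 and Sox9 had at least 818 reads each over the 6 libraries. Grhl1, St14 and Ovol1 had 217, 120 and 77 reads, and Rab25, Esrp2, Esrp1 and Grhl2 had 19, 9, 5 and 4 reads. Between the groups, 1 of the 4 genes that could be tested passed: Sox9 was 3.19-fold lower in null tumours, while Sox2, Trp63 and Grhl1 did not pass. The Sox9 call was lost in 3 of 14 alternative fits. Of all 11887 tested genes, 5.79% were called in either direction and 3.52% as lower in null tumours. The other 6 identity genes lay below the expression filter of the test, which asks for a level of about 10 reads per library of median depth in at least 3 libraries.

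To compare levels between genes, CPM was divided by the length of the merged exons in kilobases. Sox2 stood first in both groups at 16.3 ± 2.56 CPM per kb in null and 16.8 ± 2.37 CPM per kb in wild-type tumours (SD, n = 3 each), at percentiles 83.8 and 84.2 of the 20912 genes with a length and a read. In null tumours Trp63 (2.73 ± 0.50 CPM per kb) and Sox9 (2.43 ± 1.01 CPM per kb) followed with overlapping values, and Grhl1 came next at 0.729 ± 0.133 CPM per kb, below every null value of Sox9. In wild-type tumours Sox9 was second at 6.88 ± 0.999 CPM per kb, above every wild-type value of Trp63 (1.78 ± 1.08 CPM per kb). The wild-type values of Trp63, St14, Ovol1, Grhl1, Esrp1, Rab25 and Esrp2 each overlapped those of the next gene in this order, and Grhl2 had no wild-type read. In null tumours the order from Grhl1 down was St14, Ovol1, Rab25, Esrp2, Esrp1 and Grhl2, again with overlap between neighbours.

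**Figure D1:**
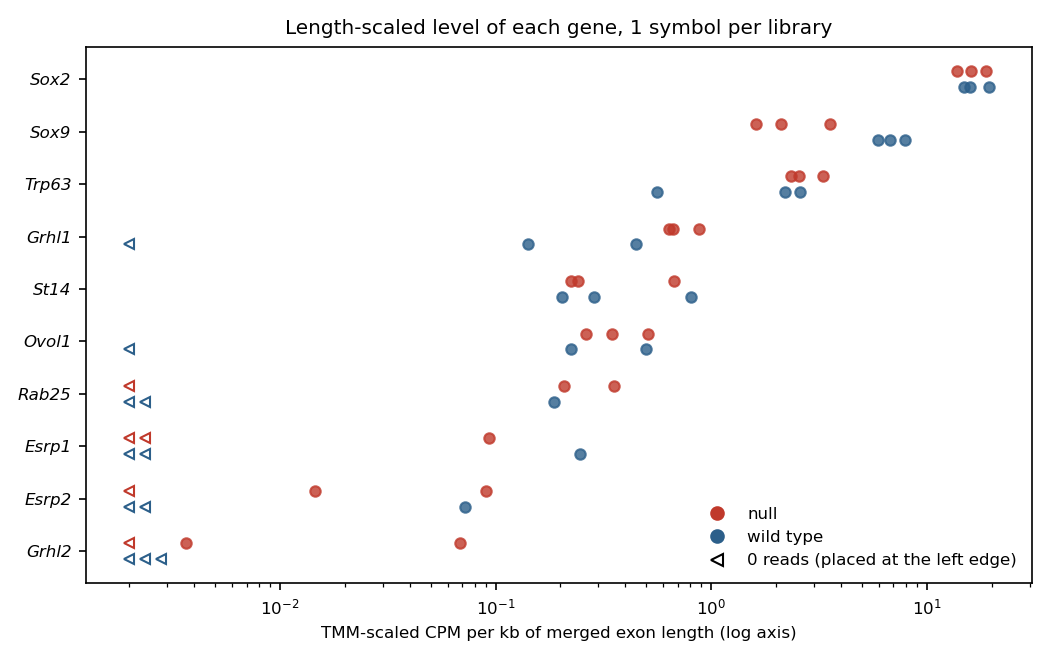
TMM-scaled CPM per kb of merged exon length for the 10 genes, 1 symbol per library, on a log axis, with null libraries in red above wild-type libraries in blue and libraries with 0 reads drawn as open triangles at the left edge. Sox2 lies near 16 CPM per kb in both groups, and the 3 null values of Sox9 lie below its 3 wild-type values.

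The window upstream of the RefSeq start site was available for Sox2, Rab25 and Grhl1. The windows of Sox2 and Rab25 are shown because these genes stand at the top and near the bottom of the levels. Each line runs 5′ to 3′ over the 250 bases before the start site in build GRCm38.p6, a later build than the mm9 named in the submitters' processing notes, and capitals mark matches to CAGGTG on either strand, an E-box that ZEB and SNAI repressors can bind.
Sox2 upstream window, chr3:34649745-34649994, plus strand: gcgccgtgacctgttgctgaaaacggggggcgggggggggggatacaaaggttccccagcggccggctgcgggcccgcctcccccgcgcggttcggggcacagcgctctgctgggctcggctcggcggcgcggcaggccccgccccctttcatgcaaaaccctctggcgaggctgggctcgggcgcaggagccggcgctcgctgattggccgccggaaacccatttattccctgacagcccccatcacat
Rab25 upstream window, chr3:88548280-88548529, minus strand: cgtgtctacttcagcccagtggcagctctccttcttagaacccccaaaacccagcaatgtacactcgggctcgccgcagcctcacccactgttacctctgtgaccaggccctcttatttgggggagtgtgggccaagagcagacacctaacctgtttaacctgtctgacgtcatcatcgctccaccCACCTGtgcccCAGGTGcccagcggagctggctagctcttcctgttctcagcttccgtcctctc
Rab25 held 2 such E-boxes, whose first bases lie at -64 and -53 from the start site, and Sox2 and both Grhl1 windows held none. Of all 32851 RefSeq windows of this length, 17.2% held CAGGTG on either strand. ACCGGT, the core of the GRHL motif, was in 1.86% of all windows and ACAAT, a SOX motif, in 27.7%, and neither was in the 4 windows of these genes. GC content was 72.0% in the Sox2 window and 58.4% in the Rab25 window, against a median of 52.4% over all windows. A match describes the letters only, and the absence of one says nothing about binding.

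Sox9 (ENSMUSG00000000567) was the only tested identity gene that passed between the genotypes. It had 16, 274 and 34 reads in null libraries 1 to 3, and 42, 4 and 448 reads in wild-type libraries 1 to 3. These counts gave 14.7, 8.68 and 6.69 CPM in the null libraries, against 32.8, 24.6 and 28.0 CPM in the wild-type libraries. Every null value lay below every wild-type value, although the value of wild-type library 2 rests on 4 reads (95% exact Poisson interval 6.70 to 62.9 CPM). The group means were 10.04 ± 4.19 CPM in null and 28.4 ± 4.13 CPM in wild-type tumours (SD, n = 3 each), a log2 fold change of -1.67 (SE 0.36, edgeR's quasi-likelihood test, Benjamini-Hochberg adjusted p = 0.0190). Of all 11887 tested genes 5.79% were called in either direction and 3.52% as lower in null tumours, and groups of libraries did not overlap for 30.5%. The call was lost without null library 2 (log2 fold change -1.61, edgeR adjusted p = 0.0611) and without null library 3 (-1.45, 0.102). It was also lost with libraries of a shared mouse number summed (-1.50, 0.0636), and over all 14 alternatives the adjusted p ran between 0.00476 and 0.102.

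SOX9 also marks cells other than keratinocytes, and markers of these moved in part with genotype. In bulk tumours, fewer cells of a type and less RNA per cell cannot be told apart. Of 9 hair follicle and sebaceous markers 2 were tested and 0 passed, with a summed level of 81.1 to 105 CPM in null and 58.0 to 178 CPM in wild-type libraries, and the follicle signal gene Shh was at 0 reads throughout. The genes of that list with the highest mean CPM were Scd1 (75.8 ± 15.3 CPM in null, 91.9 ± 52.5 CPM in wild-type tumours, SD, n = 3 each) and Mgst1, which are also made outside the follicle. Of 7 chondrocyte markers 1 was tested and 0 passed, with a summed level of 5.53 to 7.28 CPM in null and 0 to 26.6 CPM in wild-type libraries, and the cartilage genes Col2a1 and Acan had at most 7 and 3 reads in any library. Col11a2 and Comp had the highest mean CPM of that list, at 4.77 and 1.05 CPM in null and 11.5 and 0.582 CPM in wild-type tumours. Of the Schwann cell markers, Sox10 had at most 2 reads in any library. The summed Schwann cell level was 15.7 to 19.1 CPM in null and 18.4 to 45.6 CPM in wild-type libraries, and Foxd3 and Cdh19 were at 0 reads throughout. Of 12 skeletal muscle markers 11 were tested and all 11 fell, with a summed level of 41.9 to 116 CPM in null and 573 to 1538 CPM in wild-type libraries. The smallest p values among them belonged to the desmin gene Des, Ttn, Ryr1 and Tnnt3, with log2 fold changes between -4.58 (Ttn, edgeR adjusted p = 0.000289) and -3.61 (Des, 0.00023). Of 8 adipocyte markers 4 were tested and 3 fell, with a summed level of 43.5 to 94.0 CPM in null and 98.9 to 255 CPM in wild-type libraries. The adipocyte genes that fell were Cfd, Car3 and Lpl, with log2 fold changes of -4.69, -3.55 and -1.58. The Car3 call was lost in 9 of 13 alternatives (highest adjusted p = 0.424, with log2 fold change -1.27, limma-voom with mouse number random) and the Lpl call in 3 of 14 (highest 0.0811, without null library 1). Of 6 melanocyte, 7 endothelial and 9 leukocyte markers, 1, 7 and 6 were tested and 0 passed in each list. Their part in the Sox9 result was not tested.

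**Figure D2:**
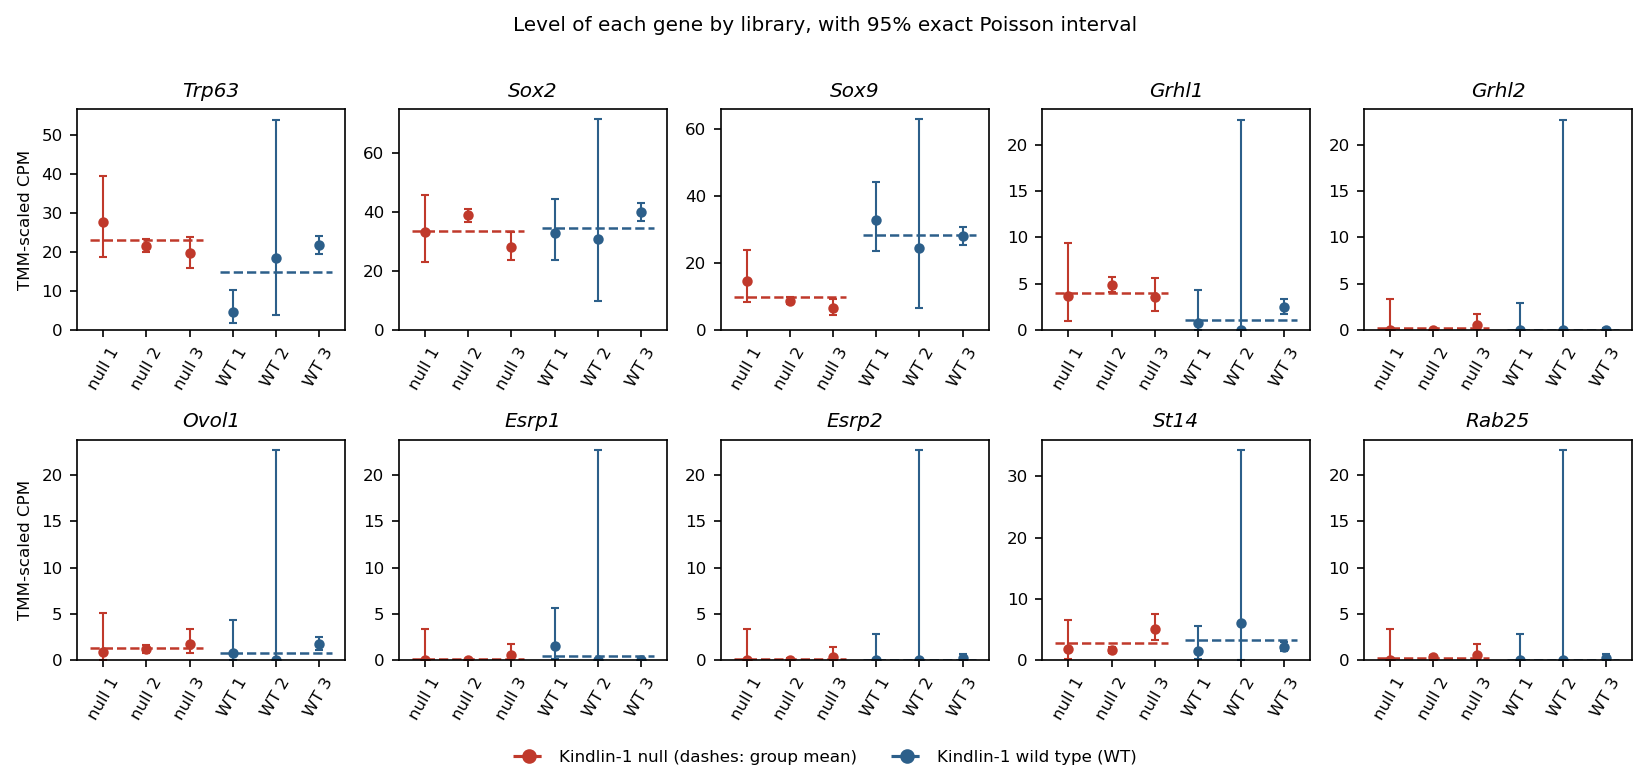
TMM-scaled CPM of each gene in null libraries (red, left) and wild-type libraries (blue, right), with 95% exact Poisson intervals that cover counting error only and dashed lines at the group means. The Sox9 values do not overlap between groups, Trp63 is low in wild-type library 1 at 4.68 CPM, and the intervals of wild-type library 2 are the widest.

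Sox2 (ENSMUSG00000074637) was the most abundant of the 10 genes per length and was close to level across the libraries. It had 36, 1226 and 144 reads in null libraries 1 to 3, and 42, 5 and 641 reads in wild-type libraries 1 to 3. The levels were 33.2, 38.9 and 28.3 CPM in the null libraries, against 32.8, 30.7 and 40.0 CPM in the wild-type libraries. The groups overlapped, with means of 33.5 ± 5.27 CPM in null and 34.5 ± 4.87 CPM in wild-type tumours (SD, n = 3 each) and a log2 fold change of -0.10 (SE 0.27, edgeR adjusted p = 0.840). Its sign turned when wild-type library 3 (0.047) or null library 3 (0.0029) was left out, so no direction is given. In the later annotation used for names, Sox2 lies within the span of the noncoding gene Sox2ot on the same strand, without shared exon bases.

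Of 12 other SOX genes 3 were tested and 0 passed, with a median log2 fold change of -0.39, against 0.01 over all tested genes. Sox18 and Sox17, factors of endothelial cells, had the highest mean CPM over all 6 libraries, at 16.5 ± 1.84 and 6.59 ± 3.08 CPM in null tumours and 24.7 ± 15.9 and 7.18 ± 2.40 CPM in wild-type tumours (SD, n = 3 each).

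Trp63 (ENSMUSG00000022510) had 30, 679 and 100 reads in null libraries 1 to 3, and 6, 3 and 349 reads in wild-type libraries 1 to 3. Its level was 27.6, 21.5 and 19.7 CPM in the null libraries, against 4.68, 18.4 and 21.8 CPM in the wild-type libraries. Wild-type library 1 stood below the other 5 libraries, with a 95% exact Poisson interval of 1.72 to 10.2 CPM, and the groups overlapped through wild-type library 3. The means were 22.9 ± 4.17 CPM in null and 14.97 ± 9.06 CPM in wild-type tumours (SD, n = 3 each), and the log2 fold change of 0.53 (SE 0.43) did not pass (edgeR adjusted p = 0.461). Without wild-type library 1 it was 0.07 (edgeR adjusted p = 0.947), and without wild-type library 3 it was 1.72 (0.124). These are the highest and the lowest adjusted p of the 14 alternatives. Counts per gene do not separate the long and short p63 isoforms.

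Genes described as p63 targets were set beside it. Of 12 such genes 6 were tested, of which 2 fell and 0 rose, with a median log2 fold change of -0.40. Perp, a desmosome-associated membrane protein, had 33.2, 26.9 and 35.2 CPM in null libraries 1 to 3, against 140, 141 and 83.9 CPM in wild-type libraries 1 to 3 (log2 fold change -1.89, SE 0.28, edgeR adjusted p = 0.00273). Krt14, the type I keratin of basal keratinocytes, had 10.1, 10.6 and 5.12 CPM in the null libraries, against 45.3, 36.9 and 26.3 CPM in the wild-type libraries (-2.04, SE 0.38, edgeR adjusted p = 0.0100). Both passed in all 14 alternatives, with highest adjusted p values of 0.0199 and 0.0432. Krt5, the partner of Krt14 in basal cells, had 0, 5 and 2 reads in the null libraries and 5, 0 and 5 reads in the wild-type libraries. Ripk4, Dlx3, Cdh3 and Zfp750 also lay below the filter, with at most 29 reads in any library.

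Grhl1 (ENSMUSG00000020656) had 4, 154 and 18 reads in null libraries 1 to 3, and 1, 0 and 40 reads in wild-type libraries 1 to 3. This gave 3.68, 4.88 and 3.54 CPM in the null libraries, against 0.781, 0 and 2.50 CPM in the wild-type libraries. Every null value lay above every wild-type value, but both low wild-type values lay under the floors of their libraries. Groups of libraries did not overlap for 30.5% of all tested genes. Grhl1 reached the expression filter through its 3 null libraries alone, so its being tested depended on its null level. The means were 4.04 ± 0.74 CPM in null and 1.09 ± 1.28 CPM in wild-type tumours (SD, n = 3 each). The log2 fold change of 1.06 (SE 0.58) did not pass (edgeR adjusted p = 0.273, and between 0.122 and 0.639 over 10 alternatives). An exact permutation test on the 6 CPM values (two-sided) gave p = 0.1, and no smaller value is possible with 3 libraries in each group. Grhl2 (ENSMUSG00000022286) had 0, 1 and 3 reads in the null libraries and 0 reads in each wild-type library, with a 95% upper limit of 0.211 CPM over the pooled wild-type reads. Its pooled null level of 0.106 CPM lay below the floor of 3 reads over the wild-type group (0.172 CPM), so no fold is given. The third family member, Grhl3, had 0 reads in all 6 libraries.

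Ovol1 (ENSMUSG00000024922) had 1, 38 and 9 reads in the null libraries, and 1, 0 and 28 reads in the wild-type libraries. The levels were 0.921, 1.204 and 1.77 CPM in null libraries, against 0.781, 0 and 1.75 CPM in wild-type libraries, and the groups overlapped (exact permutation p = 0.4, two-sided). The ratio of pooled reads, null over wild type, was 0.766 (95% exact interval 0.474 to 1.26), a ratio that is carried by null library 2 and wild-type library 3, and that was 1.84 without wild-type library 3. Ovol2 had 0 reads in all 6 libraries.

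**Figure D3:**
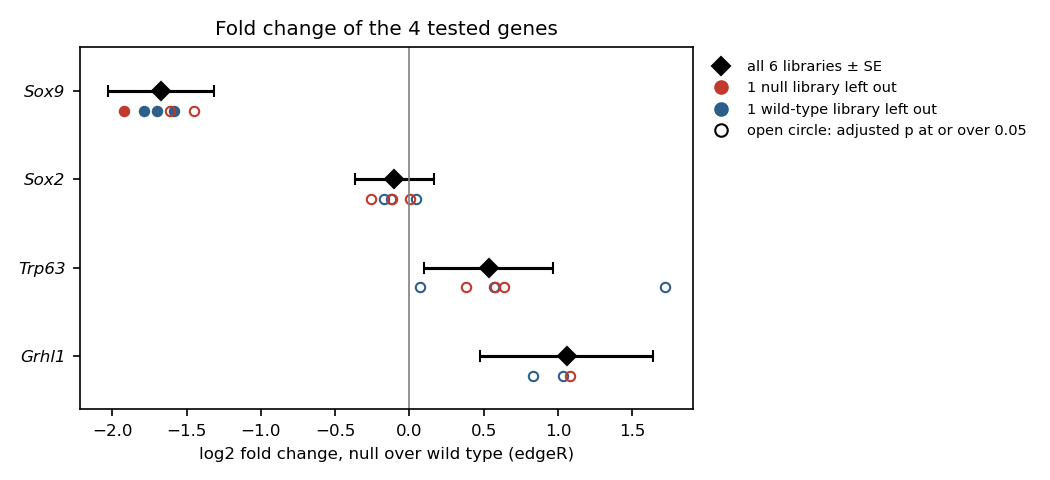
Log2 fold change of null over wild type for the 4 tested genes, with black diamonds and SE bars for all 6 libraries and circles for fits with 1 null library (red) or 1 wild-type library (blue) left out. Filled circles passed at an adjusted p under 0.05, and the Sox9 circles lie between -1.92 and -1.45 with 4 of 6 filled.

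Of 18 other squamous and epithelial transcription factors 6 were tested, of which 1 rose and 0 fell, with a median log2 fold change of 0.18. Ehf, an ETS factor of epithelial cells, had 45, 926 and 115 reads in null libraries 1 to 3, and 5, 2 and 64 reads in wild-type libraries 1 to 3. Its level was 41.5, 29.4 and 22.6 CPM in the null libraries, against 3.90, 12.3 and 3.99 CPM in the wild-type libraries (log2 fold change 2.80, SE 0.43, edgeR adjusted p = 0.00308). All null values lay above the wild-type values, and it passed in all 14 alternatives (highest adjusted p = 0.0380, without wild-type library 3). Of all tested genes 2.26% were called as higher in null tumours. Chosen after their values were seen, Pitx1 and Klf4 were present at 242 and 45.3 CPM in null tumours and at 413 and 31.2 CPM in wild-type tumours without passing, and Tfap2a stood at 30.8 and 29.2 CPM. Trp73, Tfap2c, Elf3 and Foxa1 had at most 5 reads in any library.

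Both epithelial splicing factors were near 0. Esrp1 (ENSMUSG00000040728) had 0, 0 and 3 reads in null libraries 1 to 3, and 2, 0 and 0 reads in wild-type libraries 1 to 3. Esrp2 (ENSMUSG00000084128) had 0, 2 and 2 reads in the null libraries and 0, 0 and 5 reads in the wild-type libraries. Pooled over each group, Esrp1 stood at 0.0795 CPM in null (95% exact Poisson interval 0.0164 to 0.232) and 0.115 CPM in wild-type tumours (0.0139 to 0.414). Esrp2 stood at 0.106 CPM in null (0.0289 to 0.272) and 0.286 CPM in wild-type tumours (0.0929 to 0.668), and 219 of its exon bases are shared with Nfatc3 on the opposite strand. At these counts no difference between genotypes was detectable (exact permutation p = 1 and 0.7, two-sided).

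The splicing regulators that are not restricted to epithelium were all measured. Of 12 such genes, 12 were tested and 0 passed, with a median log2 fold change of 0.03. Mbnl1, a muscleblind factor, averaged 523 ± 180.4 CPM in null and 304 ± 41.3 CPM in wild-type tumours, and Hnrnpm averaged 229 ± 21.1 CPM in null and 284 ± 118 CPM in wild-type tumours (SD, n = 3 each). Of 9 genes with exons that ESRP proteins regulate, 9 were tested and 1 rose, with a median log2 fold change of -0.37. Enah, an actin regulator, had 30.4, 29.7 and 32.1 CPM in null libraries 1 to 3, against 14.8, 0 and 10.9 CPM in wild-type libraries 1 to 3 (log2 fold change 1.43, SE 0.37, edgeR adjusted p = 0.0414). This call was lost in 6 of 14 alternatives, among them those without wild-type library 3 and without each null library (highest adjusted p = 0.149). Counts per gene do not show which exons were used, so the epithelial or mesenchymal forms of these transcripts were not measured.

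St14 (ENSMUSG00000031995) had 2, 54 and 26 reads in null libraries 1 to 3, and 2, 1 and 35 reads in wild-type libraries 1 to 3. The levels were 1.84, 1.71 and 5.12 CPM in the null libraries, against 1.56, 6.14 and 2.18 CPM in the wild-type libraries, where 6.14 CPM is 1 read. The groups overlapped (exact permutation p = 0.7, two-sided), with a pooled ratio of null over wild type of 0.999 (95% exact interval 0.672 to 1.51) that was 2.09 without null library 2. Of 12 inhibitors, substrates and partners of matriptase 5 were tested and 0 passed, with a median log2 fold change of 0.47. The urokinase gene Plau and the receptor gene Met had the highest mean CPM, at 177 ± 15.5 and 100.2 ± 5.12 CPM in null tumours and 134 ± 26.2 and 67.2 ± 21.97 CPM in wild-type tumours (SD, n = 3 each). Spint1 and Prss8, an inhibitor and a downstream protease of matriptase, had 6 and 5 reads over the null libraries and 0 over the wild-type libraries, but 5 reads of each were in null library 3 alone.

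Rab25 (ENSMUSG00000008601) had 0, 11 and 3 reads in null libraries 1 to 3, and 0, 0 and 5 reads in wild-type libraries 1 to 3. Pooled reads gave 0.371 CPM in null (95% exact Poisson interval 0.203 to 0.623) and 0.286 CPM in wild-type tumours (0.0929 to 0.668), a ratio of 1.30 (0.441 to 4.60). The groups overlapped (exact permutation p = 0.4, two-sided). Of 8 genes of the RAB11 family and its effectors 6 were tested and 0 passed, with a median log2 fold change of -0.17. Rab11fip5 and Rab11a had the highest mean CPM, at 167 ± 48.5 and 159 ± 28.9 CPM in null tumours and 170.1 ± 33.6 and 98.5 ± 16.6 CPM in wild-type tumours (SD, n = 3 each).

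Without any filter on low counts, all 10 genes were fitted and Sox9 alone passed (edgeR adjusted p = 0.00788). The adjusted p of the 6 sparse genes then ran between 0.324 (Grhl2) and 0.977 (Ovol1), which does not show that they are equal in the 2 genotypes.

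**Figure D4:**
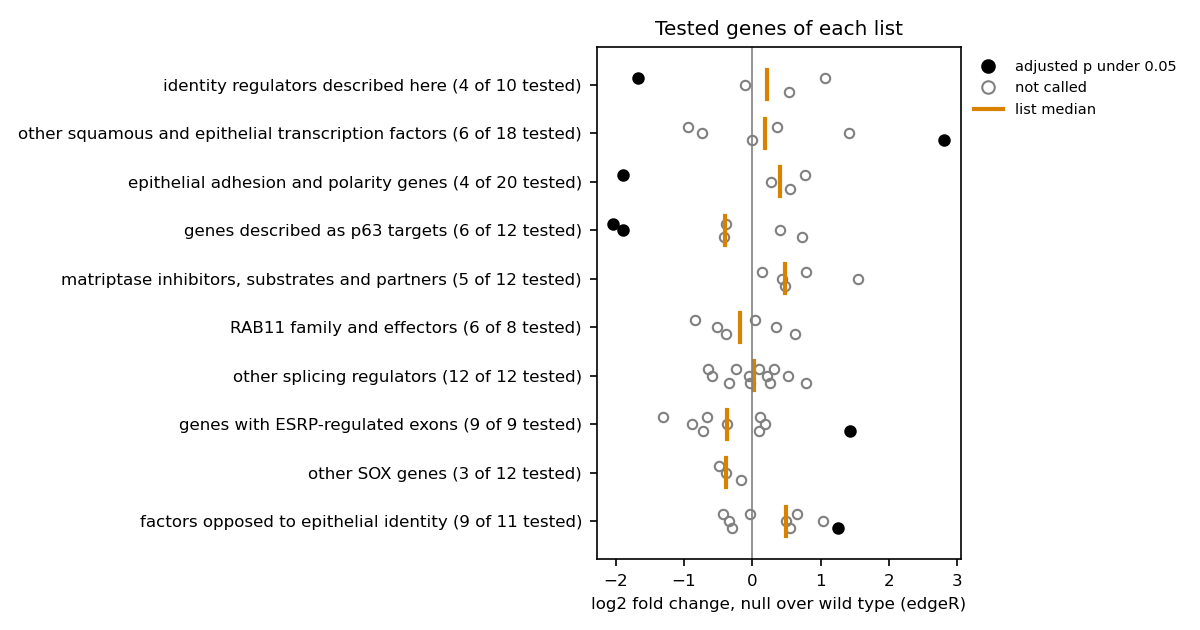
Log2 fold change of null over wild type for every tested gene of each list, with filled circles for genes that passed, open circles for the others and orange bars at the list medians. Sox9, Perp and Krt14 are the filled circles left of 0, and Ehf, Enah and Prrx1 are those right of 0.

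The tissue label was checked against markers. Of 12 keratinocyte markers 4 were tested, of which Krt15 rose and Krt14 fell, and Krt1, Ivl and Dsg3 had 0 reads in every library. Krt15, a keratin of basal and follicle cells, had 28.6, 16.5 and 13.2 CPM in null libraries 1 to 3, against 7.03, 0 and 2.93 CPM in wild-type libraries 1 to 3 (log2 fold change 2.26, SE 0.52, edgeR adjusted p = 0.0283). With 0 CPM in wild-type library 2, Krt15 could not reach the expression filter, which asks for 3 libraries, through wild-type libraries alone. Its being tested thus depended in part on its null level. Krt15 did not pass without wild-type library 3 or without null library 1 (highest edgeR adjusted p = 0.204). The summed level of the 12 keratinocyte markers was 55.3, 39.4 and 30.5 CPM in null libraries 1 to 3, against 80.4, 55.3 and 46.4 CPM in wild-type libraries 1 to 3. Krt1 and Ivl, markers of differentiated keratinocytes, were thus at 0 and Krt5 had at most 5 reads in any library, although the label is squamous cell carcinoma, while Sox2 and Trp63 had reads in all 6 libraries.

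Of 20 epithelial adhesion and polarity genes 16 lay below the filter, 1 of the 4 tested fell and 0 rose. Perp, described above, was the one that fell. Cdh1, the epithelial cadherin, was at 6.45, 3.55 and 6.49 CPM in null libraries 1 to 3, against 3.90, 6.14 and 2.50 CPM in wild-type libraries 1 to 3, where 6.14 CPM is 1 read. Of 11 factors opposed to epithelial identity 9 were tested, of which 1 rose and 0 fell, with a median log2 fold change of 0.49. Zeb1, of the same list, had 0 reads in every library. The annotation used for counting is not named, so whether a count of 0 reflects absence was not tested. Prrx1, a homeobox factor of mesenchymal cells, averaged 339 ± 33.8 CPM in null and 139 ± 20.95 CPM in wild-type tumours (SD, n = 3 each, log2 fold change 1.26, SE 0.25, edgeR adjusted p = 0.0139). Its call was lost without null library 1 or 3 and with libraries of a shared mouse number summed (highest adjusted p = 0.103). Fibroblast markers were abundant in both groups, with a summed level of 6032 to 7237 CPM in null and 4063 to 5928 CPM in wild-type libraries, and of the 8 tested 2 rose and 2 fell. Those that rose were the proteoglycan genes Lum (log2 fold change 2.92) and Dcn (1.44), and those that fell were Thy1 (-1.62) and the collagen gene Col1a2 (-1.61). The Dcn call was lost in 5 of 14 alternatives (highest adjusted p = 0.092) and the Col1a2 call in 3 of 14 (highest 0.093), both among others with libraries of a shared mouse number summed.

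Reads of the sparse epithelial genes were uneven between libraries. Null library 3 held all 3 null reads of Esrp1 and 3 of the 4 reads of Grhl2, although null library 2, of the same mouse number, was 6.02 times deeper. Of 8 markers of simple or glandular epithelium, 5 (Krt8, Krt19, Krt7, Cldn3 and Cldn8) also had more reads in null library 3 than in null library 2, as did 6 of the 20 adhesion and polarity genes. The same held for 0.278% of all tested genes and for 5.47% of all genes with a read. Krt8 stood at 36.8, 0.0317 and 28.3 CPM in null libraries 1 to 3, and at 35.9, 18.4 and 0.624 CPM in wild-type libraries 1 to 3. The summed level of the 8 simple epithelium markers was 55.3, 10.6 and 57.3 CPM in the null libraries, against 58.6, 61.4 and 18.3 CPM in the wild-type libraries. Wild-type library 1, which held both wild-type reads of Esrp1, was among the libraries with a high sum. So were null library 1 and wild-type library 2, which held 0 reads of Esrp1, Esrp2, Grhl2 and Rab25. Wild-type library 3, with a low sum, held all 5 wild-type reads of Esrp2 and all 5 of Rab25. Rab25 also had 11 reads in null library 2 against 3 in null library 3. The part of the simple epithelium level in the reads of these sparse genes was not tested.

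**Figure D5:**
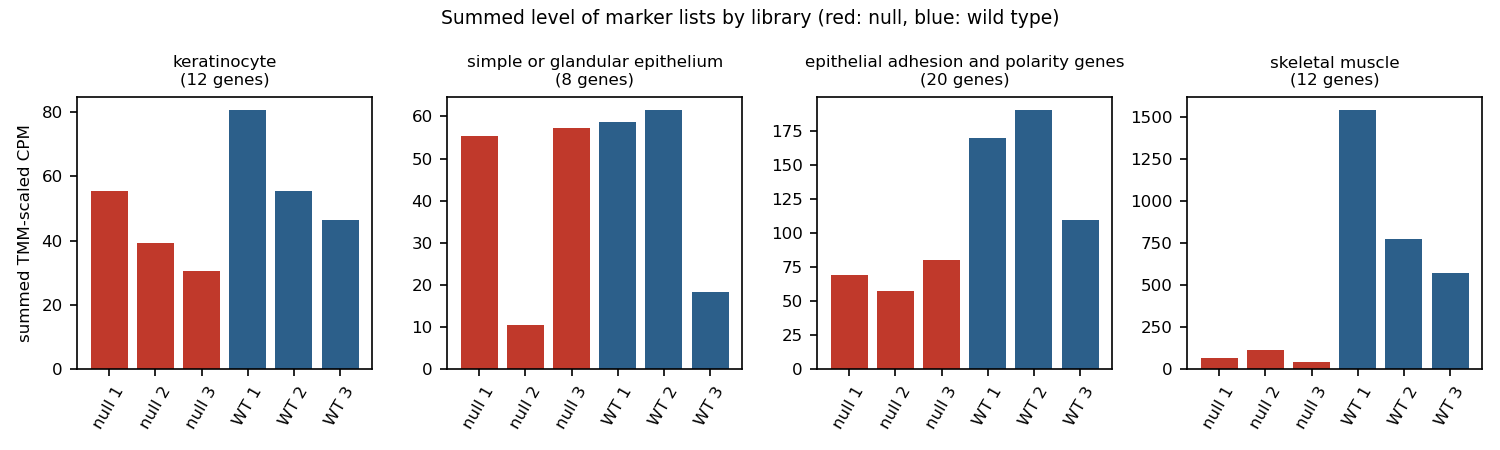
Summed TMM-scaled CPM of 4 gene lists in each library, null in red at the left and wild type in blue at the right, with bars from 0. The simple or glandular epithelium sum is low in null library 2 (10.6 CPM) and wild-type library 3 (18.3 CPM), and the skeletal muscle sum is at most 116 CPM in every null library.

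Pearson's r of log2 CPM over the 6 libraries was 0.41 for Trp63 and Grhl1, 0.36 for Sox2 and Grhl1, 0.23 for Sox2 and Sox9, 0.17 for Trp63 and Sox2, -0.51 for Trp63 and Sox9, and -0.65 for Sox9 and Grhl1. These values describe 6 libraries of very unequal depth, and so do the genes with the most similar patterns, which were picked from all tested genes. They were Mis18a, E2f5 and Ssx2ip for Trp63 (r = 0.99 each) and Gbp7, Lacc1 and Gm12906 for Sox2 (r = 0.95, 0.94 and 0.94). For Sox9 they were Prdm11, Phf20l1 and Tnni2 (r = 0.99, 0.99 and 0.98), of which Tnni2, a fast skeletal troponin, fell by 2.12 on the log2 scale (edgeR adjusted p = 0.00374). For Grhl1 they were Klrd1, Xaf1 and Rbpj (r = 0.998, 0.995 and 0.994).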

How the data were processed

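Each deposited file lists raw read counts by Ensembl gene identifier, as whole numbers without normalization, and 5 closing lines for reads in no single gene, which were left out of all totals and fits. Reads in no gene were 4.63% to 5.84% of listed reads in null and 7.15% to 12% in wild-type libraries, and reads with several alignments 32.9% to 34.9% and 34.1% to 40%. TopHat2, Cuffdiff, DESeq2 and build mm9 are named in the submitters' processing notes. The sources used here do not name the counting program, strand setting or annotation, so reads of overlapping genes on opposite strands cannot be told apart. Symbols and merged exon lengths came from GENCODE M21 by identifier (86.7% matched). In that annotation, exon bases are shared on the opposite strand for other identity genes besides Esrp2 with Nfatc3. Ovol1 shares 690 with Gm31166 and 76 with AC126029.1, Grhl2 shares 169 with Gm16136, and Esrp1 shares 127 with Gm26663. Esrp2 shares a further 119 with 1810019D21Rik. Differences were tested in R 4.3.3 with edgeR 4.0.16 (robust quasi-likelihood fit, TMM, default filter, Benjamini-Hochberg over all tested genes at 0.05), checked on simulated counts. Log2 fold changes are null over wild type, and the SE is the absolute fold change divided by the root of F. Genes under the filter were compared by pooled reads with exact intervals and by exact permutation. Intervals and floors cover counting error only. Alternatives were RLE scaling, other filters, DESeq2 1.42.0, limma 3.58.1 (voom, also with mouse number as a random effect), summed libraries of a shared mouse number, and each library left out. The genes and the 20 lists were chosen with earlier results of these data known. From each list the text names up to 4 genes that passed, or, where none did, the 2 with the highest mean CPM. Other named genes were chosen after their values were seen. Some listed genes are not reported here.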

Additional observations from a re-analysis of the deposited data

How the results depend on the processing

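Of all tested genes 688 were called. The count was 1698 with limma-voom and 1156 when voom took the mouse number as random, against 484 to 842 with the other scaling, filter, DESeq2 and summed-library settings, and it ran from 179 (without null library 1) to 855 (without wild-type library 1) with 1 library left out, with 225 when null library 3 and 281 when wild-type library 3 was left out. The cause was not tested. Among the 10 identity genes 1 was called (Sox9), 0 with libraries of a shared mouse number summed (edgeR, Sox9 adjusted p = 0.0636, with 1 at an unadjusted p under 0.05, and 1 by DESeq2 on all libraries), and 0 to 1 with 1 library left out. Among the 199 other listed genes 108 were tested and 25 called, 11 of them skeletal muscle markers, while 5.79% of all tested genes were called. With 1 library left out 14 to 25 of the listed genes were called, the lowest without null library 1 (14) and null library 3 (15). The log2 fold change of Sox2 ran from -0.26 to 0.047, positive without wild-type library 3 (0.047) and null library 3 (0.0029), and that of Trp63 from 0.07 to 1.72 in those fits. Fermt1 passed in all 14 alternatives. Of 249 alternative fits of the named genes of the lists that passed, 213 kept the call and 36 lost it, and 0 turned the sign. No paired analysis was possible because the mouse numbers in the titles do not cross the groups and the labels give no other replicate number. Depth limits the sparse genes: 3 reads are 18.4 CPM in wild-type library 2, above the level of 7 of the 10 genes in every other library.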
